A study of Mus musculus with 39 samples.

Results

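The 31 genes described here carry out sterol synthesis or belong to the 2 regulatory circuits that set cellular sterol levels, the SREBP circuit and the LXR circuit. They were taken by name from a list that was chosen with earlier results of these data known, and all 31 were found among the 29980 genes of the count table. All 31 also passed the filter on low counts that left 13780 genes to test, Abcg1 through its WT libraries alone. By role, 7 encode enzymes of the mevalonate arm, 11 encode enzymes from squalene to cholesterol, 4 belong to the SREBP machinery, 6 are sterol transport or fatty acid targets of SREBP, and 3 are LXR targets. Beside the members' count in each comparison of the main fit stands the percentage of all genes tested that the same comparison called. Counts by overlap, by unadjusted p or from other fits stand without that percentage, and are not read as results particular to the members.

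The libraries came from C2C12, an immortalised mouse myoblast line that fuses into myotubes when serum is lowered. Wild type cells (WT) were set against FlncKO cells (KO), in which a CRISPR/Cas9 guide had been aimed at the start of the gene for filamin C, an actin crosslinker of striated muscle. Bulk RNA was sequenced at day 0, in growth medium with 10% fetal bovine serum, and at days 1, 2, 4 and 6 of differentiation in medium with 2% horse serum refreshed daily, so that day and serum cannot be told apart in any comparison with day 0. Each genotype and day had 4 libraries, except KO day 2 with 3, for 39 libraries in 10 groups. The numbering was replicates 1, 3, 4 and 5, and 1, 3 and 5 for KO day 2. The labels do not say whether the replicates were separate cultures, so that p-values measure the spread between these libraries, which may be technical. Whether the KO line is a single clone is not given in the sources used here, and a difference between the lines cannot be told apart from one between clones.

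Cholesterol is built from acetyl-CoA by way of mevalonate and squalene, and the genes for nearly every step carry binding sites for the sterol regulatory element-binding proteins, SREBP-1 (Srebf1) and SREBP-2 (Srebf2). These factors are made as membrane proteins of the endoplasmic reticulum. When sterols are low, Scap escorts them to the Golgi, where proteases release the active part. When sterols are high, Insig1 holds Scap back, and Insig1 is itself an SREBP target. The liver X receptors (LXR) work in the opposite situation: bound by oxysterols or by some sterol intermediates, they switch on the efflux pumps Abca1 and Abcg1 and Mylip, a ubiquitin ligase that removes lipoprotein receptors from the cell surface. In muscle, cholesterol is known as a main component of the plasma membrane and of the membrane tubules of the muscle fibre.

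Of the 31 members, 23 had a promoter window in the RefSeq table used (GRCm38.p6, 250 bases before to 50 after the annotated start). Fdps, Fdft1, Sqle, Stard4, Fads1, Scd1, Scd2 and Abcg1 did not. The sterol element TCACCCCAC, searched on both strands, stood in 1 of the 23 members, Hmgcs1, and in 0.614% of 27025 genes with a window. With 1 mismatch allowed it stood in 6 of the 23 (26.1%) and in 11.1% of all genes. The CCAAT box, bound by NF-Y, the usual partner of SREBP, stood in 19 of the 23 (82.6%) and in 41.1% of all genes. An LXR element, taken as 2 copies of AGGTCA with 4 bases between them and at most 2 mismatches in all, stood in 1 of the 23, in a window of Dhcr7, and in 3.47% of all genes. These matches describe letters in a window. The cut leaves out looser LXR elements, so a window without a match may still hold one. The Abca1 window holds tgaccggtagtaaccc, whose reverse complement has this layout with more mismatches than the cut allows. The Hmgcs1 window is shown because it holds the exact sterol element, and those of Abca1 and Mylip because these are the LXR targets with a window. Capitals mark the sterol element and each CCAAT box on either strand. The windows lie at chr13:119690101-119690400 (plus strand) for Hmgcs1, chr4:53159846-53160145 (minus strand) for Abca1 and chr13:45389492-45389791 (plus strand) for Mylip, and each is written 5′ to 3′ in the direction of its gene.
Hmgcs1: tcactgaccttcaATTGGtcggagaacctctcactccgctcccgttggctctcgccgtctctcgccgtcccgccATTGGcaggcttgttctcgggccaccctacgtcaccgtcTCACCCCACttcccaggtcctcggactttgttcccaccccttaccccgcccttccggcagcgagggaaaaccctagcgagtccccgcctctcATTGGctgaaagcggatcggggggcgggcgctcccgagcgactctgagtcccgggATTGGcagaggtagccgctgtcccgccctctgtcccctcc
Abca1: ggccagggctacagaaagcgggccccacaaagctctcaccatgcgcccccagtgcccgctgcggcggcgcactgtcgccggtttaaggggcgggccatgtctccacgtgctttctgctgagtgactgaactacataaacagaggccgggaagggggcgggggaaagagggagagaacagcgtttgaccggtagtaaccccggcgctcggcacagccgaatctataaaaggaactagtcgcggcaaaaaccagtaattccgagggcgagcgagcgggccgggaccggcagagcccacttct
Mylip: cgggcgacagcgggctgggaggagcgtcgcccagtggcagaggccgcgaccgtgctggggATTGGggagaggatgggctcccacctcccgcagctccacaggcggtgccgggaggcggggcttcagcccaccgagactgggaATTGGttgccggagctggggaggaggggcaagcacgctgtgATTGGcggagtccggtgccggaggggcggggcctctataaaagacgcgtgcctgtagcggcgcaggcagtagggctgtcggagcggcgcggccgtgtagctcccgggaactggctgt
In the Hmgcs1 window the sterol element lay 137 bases before the start, with 4 CCAAT boxes around it. The Mylip window held 3 CCAAT boxes and the Abca1 window none.

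The libraries held 6838281 to 28902526 counts, with the lowest totals at day 6 in both lines. Flnc itself, the targeted gene, averaged 648 to 1615 CPM (counts scaled to a common library size) in the WT groups and 29.4 to 131 CPM in the KO groups, and it was called lower on every day. All 10 groups expressed the muscle genes Myod1, Des and Cdh15, while the stem cell gene Pax7 averaged at most 4.77 CPM. Among markers of other cell types, the fat cell genes Cidec, Cfd and Lep and the macrophage gene Adgre1 had no count in any library. Other markers had counts. The sum of 6 fibroblast markers ranged from 1089 to 2379 CPM in WT and from 1139 to 4504 CPM in KO at day 1. At day 4 it ranged from 371 to 902 CPM in WT and from 692 to 1254 CPM in KO. Over all genes, KO day 1 replicate 3 stood furthest from its group (mean correlation 0.929 with the other libraries of its group, the next lowest 0.954). Within the members, KO day 0 replicate 1 stood apart. All 18 sterol enzymes were above their group mean there, by a median of 1.40 on the log2 scale, and Sqle, the epoxidase that oxidises squalene, reached 627 CPM against 118, 224 and 165 CPM in replicates 3, 4 and 5. Results on the members that rest on the KO day 0 libraries are therefore also given without it.

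**Figure D1:**
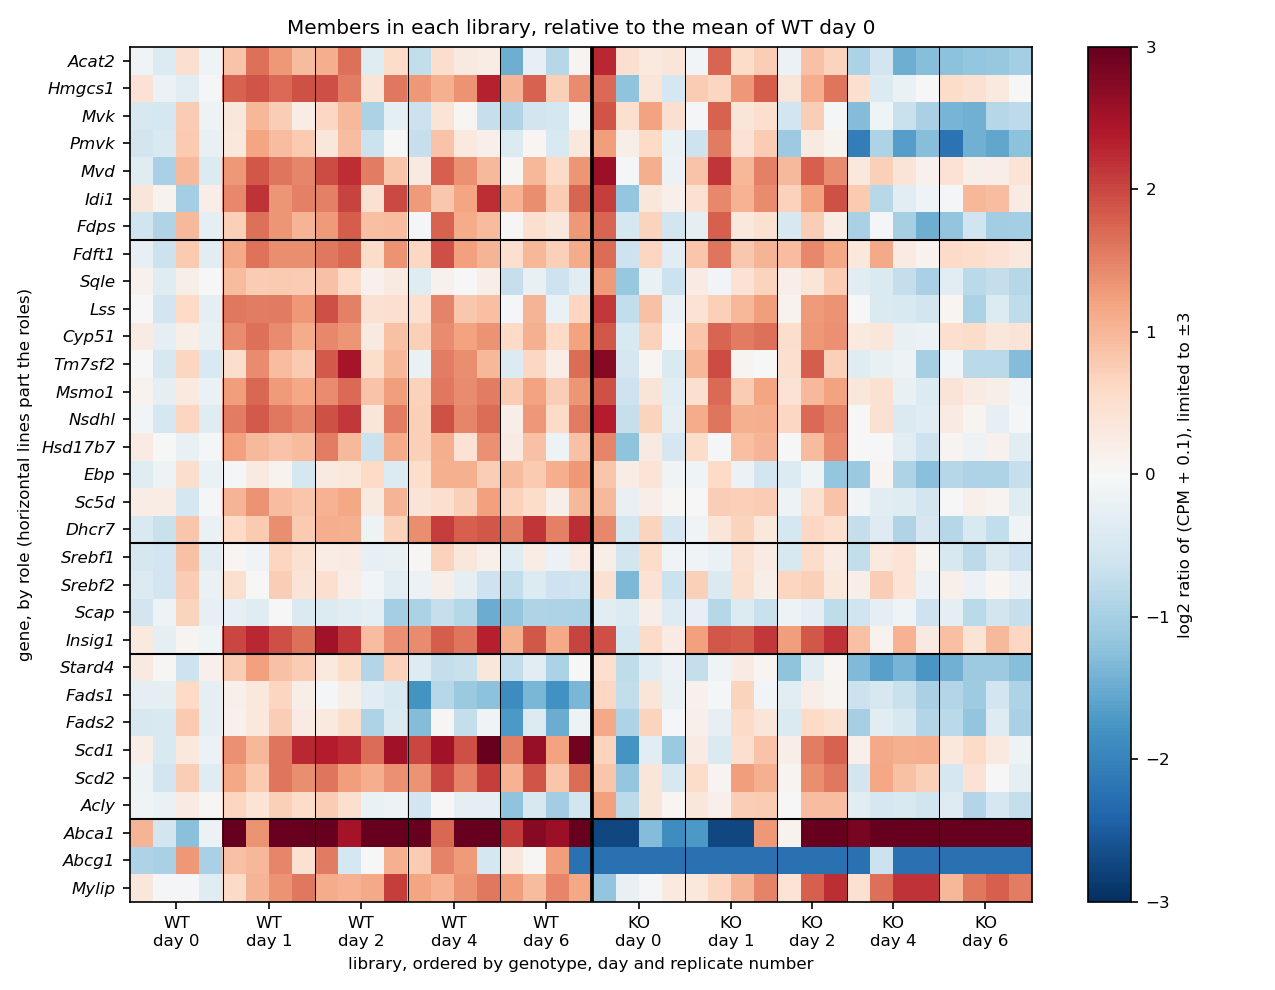
Heat map of the 31 members (rows, by role) in the 39 libraries (columns, by genotype, day and replicate number), as the log2 ratio of CPM + 0.1 to the mean of WT day 0, with colours limited to ±3. Most sterol enzymes are red at WT day 1 and pale or blue in KO at days 4 and 6, the first KO day 0 library (replicate 1) is red for all 18 of them, Abcg1 is blue in the KO libraries, and Abca1 and Mylip are red in both lines at day 4.

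In WT cells, 8 of the 18 sterol enzymes rose between growth medium and day 1, and 7 were above day 0 at day 6. At day 1, 12 of the 31 members were higher than at day 0 and none lower, against 2.32% and 1.87% of all genes tested. At day 2 the counts were 15 higher and none lower (11.9% and 13.6% of all genes), at day 4 they were 16 and 2 (19.5% and 24.3%), and at day 6 they were 12 and 3 (21.7% and 27.8%). All calls are from edgeR's quasi-likelihood test at a Benjamini-Hochberg adjusted p under 0.05, and DESeq2 called 15, 16, 20 and 17 members at the 4 days, none of them lower at days 1 and 2. Members with an unadjusted p under 0.05 numbered 20 and 19 at days 1 and 2. The day 1 count rested on few libraries: it was 3 without WT day 0 replicate 3 or without replicate 5, 7 without replicate 1, and 4 to 6 without WT day 1 replicate 1, 3 or 5. In bulk RNA, fewer cells of a kind and less RNA per cell cannot be told apart.

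Hmgcs1, the synthase that makes HMG-CoA, shows the early rise. It stood at 191, 124, 113 and 136 CPM in replicates 1, 3, 4 and 5 of WT day 0 and at 485, 518, 458 and 533 CPM at day 1, a log2 change of 1.78 ± 0.14 (± SE here and for every log2 value, adjusted p = 0.00798). No day 1 library overlapped with day 0. Insig1, the sterol-sensing retention protein, took the same course, from 75.2, 50.1, 64.7 and 56.0 CPM at day 0 to 245, 296, 237 and 193 CPM at day 1 (1.92 ± 0.17, adjusted p = 0.00219), and it was still 1.61 above day 0 at day 6. Dhcr7 and Ebp, which act late in the pathway on the sterol nucleus, were called only at days 4 and 6. Dhcr7, the last reductase before cholesterol, was not called at days 1 and 2, where its mean CPM was 1.90 and 1.69 times that of day 0. It was 1.79 ± 0.40 and 1.87 ± 0.43 above day 0 on the log2 scale at days 4 and 6 (adjusted p = 0.000156 and 7.44e-05). Ebp, the isomerase that shifts the ring double bond, was -0.10 at day 1 and 0.87 ± 0.28 and 1.04 ± 0.27 at days 4 and 6 (adjusted p = 0.0179 and 0.00436). Pmvk, Mvk, Acat2, Fdps and Sqle were called on no day in WT.

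At day 4 the KO cells had lower RNA for most of the sterol pathway. Of the 31 members, 19 were lower in KO than in WT and none higher (14.2% and 13.3% of all genes tested). These were 5 of 7 mevalonate arm genes, 9 of 11 genes from squalene to cholesterol, 1 of 4 genes of the SREBP machinery, 3 of 6 transport and fatty acid targets, and 1 of 3 LXR targets. The median log2 difference of the 31 was -1.25, beside 0.01 over all genes tested. In 17 members every KO library lay below every WT library, and the share of all genes that did so is not given here. DESeq2 called 20 lower and none higher, and 23 members had an unadjusted p under 0.05. Within the day, same-numbered libraries of the 2 lines deviated together, and with the replicate number as a block 26 members were called, 22 of them lower. The block fit called 5234 genes in all, against 1830 higher and 1961 lower in the main fit. Its added calls are therefore not read as a result particular to the members.

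**Figure D2:**
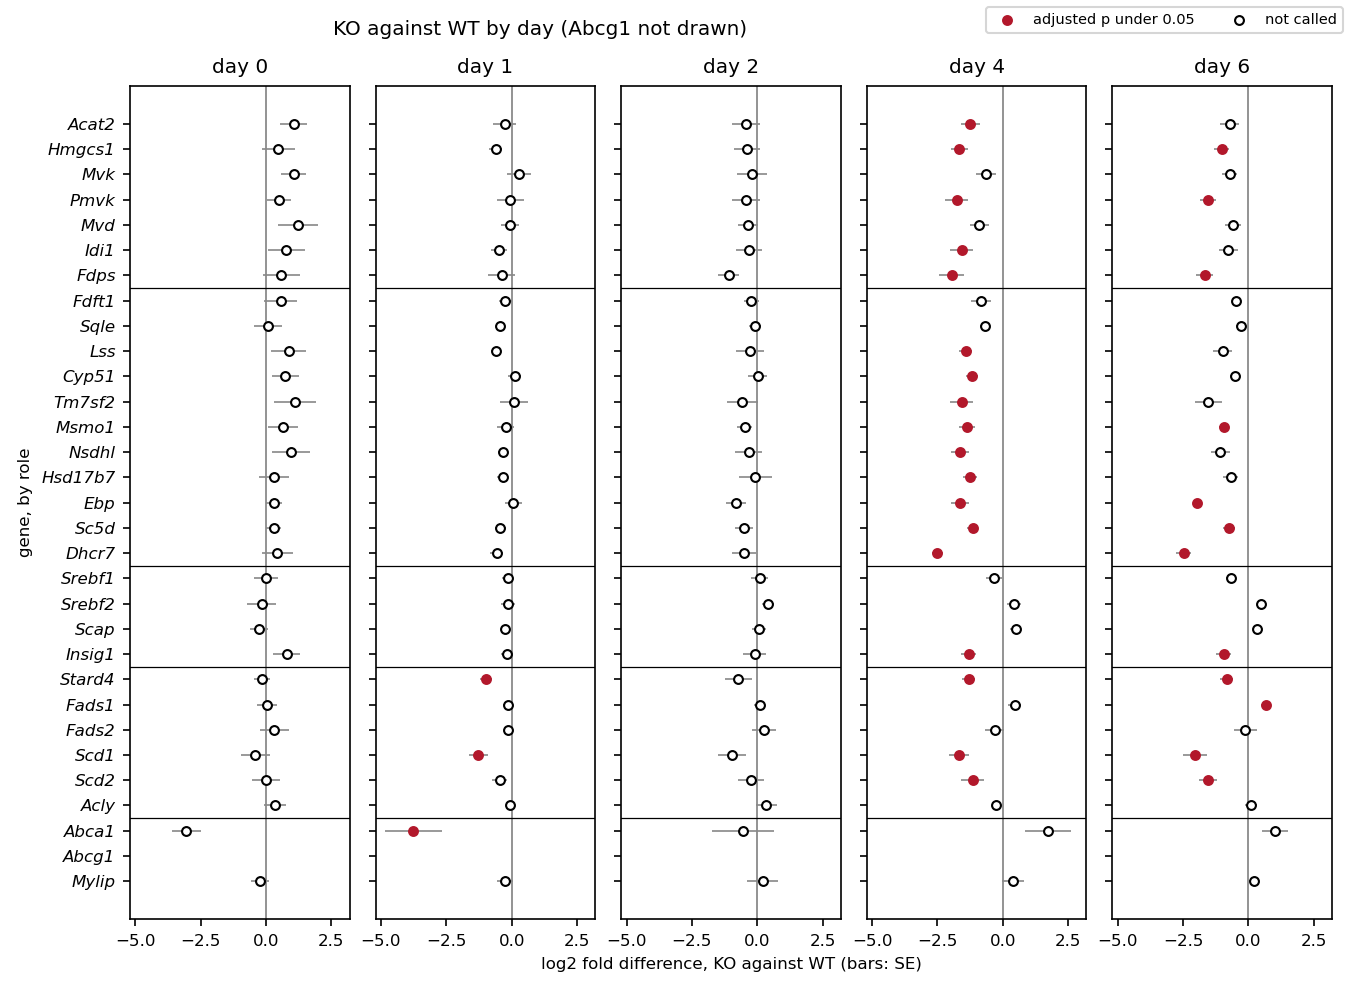
Log2 fold difference of KO against WT (horizontal axis) for the members (vertical axis, by role) at each day, with SE bars, filled where the adjusted p was under 0.05; Abcg1 is left out because its KO libraries were at or near 0. At day 4 the sterol enzymes lie left of 0 with a median of -1.38, while Srebf2, Scap, Fads1, Abca1 and Mylip lie right of it.

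Across all 31 members at day 6, 12 were lower and 1 higher in KO (14.4% and 14.5% of all genes tested), with a median log2 difference of -0.74 beside 0.02 over all genes. This count varied with single libraries: it was 7 without WT replicate 5 or KO replicate 5 and 8 without KO replicate 4. It was 22, with 20 lower and 2 higher, when only the day 6 libraries were fitted. In particular Hmgcs1, Msmo1 and Insig1 lost their calls without any 1 of WT replicates 3 and 5 or KO replicates 1, 3, 4 and 5, and Stard4 without any 1 of WT replicates 3 and 5 or KO replicates 1, 4 and 5. The calls of these 4 were also lost without TMM scaling (adjusted p = 0.0593 to 0.0747).

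The summed level of muscle markers was lower alongside the sterol genes. For 10 myoblast and muscle markers it ranged from 15446 to 20028 CPM in the WT day 4 libraries and from 4887 to 10125 CPM in the KO libraries. The most abundant markers weigh most in such a sum, and not every marker need follow it. At day 4, 9 of the 10 averaged 1 CPM or more in WT and 10 did in KO. Myog, an early differentiation factor, and Myh3, embryonic myosin, were lower in KO at day 4 (-1.53 ± 0.33 and -2.70 ± 0.23, adjusted p = 0.0366 and 0.0152). The sum of 8 fat cell markers ranged from 15.3 to 26.3 CPM in WT and from 71.7 to 137 CPM in KO at day 4. Most of the KO sum was Cebpa, at 90.7 ± 25.4 CPM (SD, n = 4) against 1.90 ± 0.881 CPM (SD, n = 4) in WT, while Pparg was lower in KO (-1.03 ± 0.24, adjusted p = 0.00386) and only these 2 of the 8 averaged 1 CPM or more. Macrophage markers summed to 4.62 to 8.52 CPM in WT and 13.9 to 20.2 CPM in KO. The share of counts from mitochondrial genes ranged from 2.41% to 4.39% in WT and from 3.59% to 6.21% in KO at day 4, and from 2.89% to 3.47% in WT and from 4.06% to 5.97% in KO at day 6, where the lines did not overlap. The part of these marker lists and of the mitochondrial share in the members' differences was not tested.

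In the mevalonate arm at day 4, Hmgcs1 stood at 348, 296, 359.6 and 695 CPM in WT replicates 1, 3, 4 and 5 and at 198, 106, 123 and 142 CPM in KO. The groups did not overlap, WT replicate 5 was far above the other 3, and the log2 difference was -1.67 ± 0.32 (adjusted p = 0.00156). Fdps, which joins isoprene units into farnesyl diphosphate, stood at 27.8, 96.9, 61.9 and 55.3 CPM in WT and 14.4, 27.2, 14.3 and 10.3 CPM in KO, again without overlap (-1.96 ± 0.49, adjusted p = 0.00301). Pmvk, the second kinase of the arm, stood at 18.6, 54.5, 37.0 and 33.2 CPM in WT and 7.02, 15.8, 9.56 and 12.3 CPM in KO (-1.77 ± 0.43, adjusted p = 0.00193). In both genes the KO replicate with the highest value was replicate 3, which was also the highest in WT. Idi1, the isomerase of isopentenyl diphosphate, was -1.58 ± 0.43 (adjusted p = 0.0086), and Acat2, the thiolase at the entry, was -1.25 ± 0.36 (adjusted p = 0.0279). Neither passed once WT replicate 5 was left out, nor did Acat2 when WT replicate 3, WT replicate 4, KO replicate 4 or KO replicate 5 was left out. The remaining kinase Mvk (-0.64 ± 0.39) and the decarboxylase Mvd (-0.90 ± 0.36) were not called (adjusted p = 0.285 and 0.143), and both passed with the replicate block (adjusted p = 0.0056 and 0.00381). By day 6, 3 of the 7 were called lower: Hmgcs1 at -1.03 ± 0.27, Pmvk at -1.55 ± 0.31 and Fdps at -1.66 ± 0.32 (adjusted p = 0.0456, 0.0062 and 0.0112). The day 6 call of Fdps was lost without WT replicate 5.

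From squalene to cholesterol, Dhcr7 (ENSMUSG00000058454, chr7:143823145-143848410, plus strand, GRCm38) had the largest difference among the sterol enzymes on both late days. At day 4 it stood at 115, 184, 150.1 and 159 CPM in WT replicates 1, 3, 4 and 5 and at 26.4, 33.4, 23.4 and 30.5 CPM in KO, or 18.7% of the WT mean (-2.50 ± 0.20, adjusted p = 4.8e-06). At day 6 it stood at 128, 193, 124 and 202 CPM in WT and 24.1, 31.7, 26.1 and 40.8 CPM in KO (-2.47 ± 0.28, adjusted p = 5.17e-06). The highest KO library of either day lay below the lowest WT library. Ebp (ENSMUSG00000031168, chrX:8185329-8193512, minus strand) stood at 118, 172, 171 and 137 CPM in WT and 37.5, 86.7, 42.7 and 34.1 CPM in KO at day 4 (-1.64 ± 0.35, adjusted p = 8.7e-05), with KO replicate 3 well above the other 3. By day 6 its KO libraries were close together, at 45.0, 42.9, 43.3 and 50.6 CPM, against 158, 142, 173 and 203 CPM in WT (-1.97 ± 0.14, adjusted p = 7.2e-06). Sc5d, the desaturase just before Dhcr7, stood at 41.3, 45.1, 52.0 and 74.1 CPM in WT and 29.8, 25.5, 24.6 and 21.6 CPM in KO at day 4 (-1.15 ± 0.20, adjusted p = 0.000523) and was -0.74 ± 0.21 at day 6 (adjusted p = 0.0223), where the call was lost without WT replicate 5 or KO replicate 5.

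The remaining enzymes of this arm differed by less than Dhcr7. At day 4 Lss, the cyclase that forms lanosterol, Cyp51, Msmo1 and Nsdhl, which remove its methyl groups, Hsd17b7, a keto-reductase, and Tm7sf2, a sterol reductase, were lower by log2 differences of -1.41, -1.19, -1.35, -1.64, -1.25 and -1.57. Tm7sf2 passed narrowly (adjusted p = 0.0419): its groups overlapped, and its call was lost when any 1 of 7 of the 8 day 4 libraries was left out, all but WT replicate 1, when the filter on low counts was dropped (adjusted p = 0.0721) and without TMM scaling (0.0512). The call of Hsd17b7 was lost without WT replicate 5. Fdft1, which makes squalene, and Sqle were -0.85 ± 0.38 and -0.68 ± 0.20 and not called (adjusted p = 0.0861 and 0.0788). Both passed with the replicate block (adjusted p = 0.000515 and 0.00821). By day 6, 4 of the 11 were called: Dhcr7, Ebp, Sc5d and Msmo1 (-0.92 ± 0.19, adjusted p = 0.0468). Cyp51 overlaps Akap9, Fdft1 overlaps Ctsb and Lss overlaps 4930483K19Rik on the opposite strand, and Tm7sf2 overlaps Vps51 on the same strand. The strand setting of the counting is not given in the sources used here, so that reads of such pairs cannot be told apart.

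Before day 4 few members differed between the lines. At day 0 only Abcg1 was called, lower in KO (9.09% of all genes were lower and 6.46% higher). The 18 sterol enzymes all had positive differences there, with a median of 0.61, none of them called by edgeR, and 6 had an unadjusted p under 0.05. DESeq2 called 3 members at day 0, 1 higher and 2 lower. With KO day 0 replicate 1 left out, the members' median went from 0.33 to -0.08 and 2 were called, both lower: Abcg1 and Sqle (-0.65, adjusted p = 0.049, against 0.07 ± 0.53 with all libraries). Leaving out WT day 0 replicate 4 gave 7 calls, KO day 0 replicate 3 gave 5 and KO day 0 replicate 5 gave 3. When the day 0 libraries were fitted alone, with or without a replicate block, Abcg1 was below the filter on low counts and no other member was called. At day 1 Stard4, Scd1, Abca1 and Abcg1 were lower and none higher (9.93% and 8.10% of all genes). DESeq2 called 4 members too, the count was 2 without KO day 1 replicate 1, and with the replicate block Dhcr7 was also called (-0.53, adjusted p = 0.0493). At day 2 only Abcg1 was lower and none higher (10.3% and 7.64%), and 5 members had an unadjusted p under 0.05. The count was 2 without WT day 2 replicate 4 or 5. In WT day 2 replicate 4, which has no same-numbered KO library, 1 of the 18 sterol enzymes was above the group mean. The median deviation of the enzymes there was -0.74 on the log2 scale. With the replicate block within that day, Fdps (-1.21), Tm7sf2 (-0.80), Ebp (-0.65), Sc5d (-0.71), Stard4 (-1.03) and Scd1 (-1.22) were called lower, with adjusted p from 0.00978 to 0.0465. That fit called 3734 genes in all, against 1053 higher and 1414 lower in the main fit. Its calls are therefore not read as a result particular to the members.

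**Figure D3:**
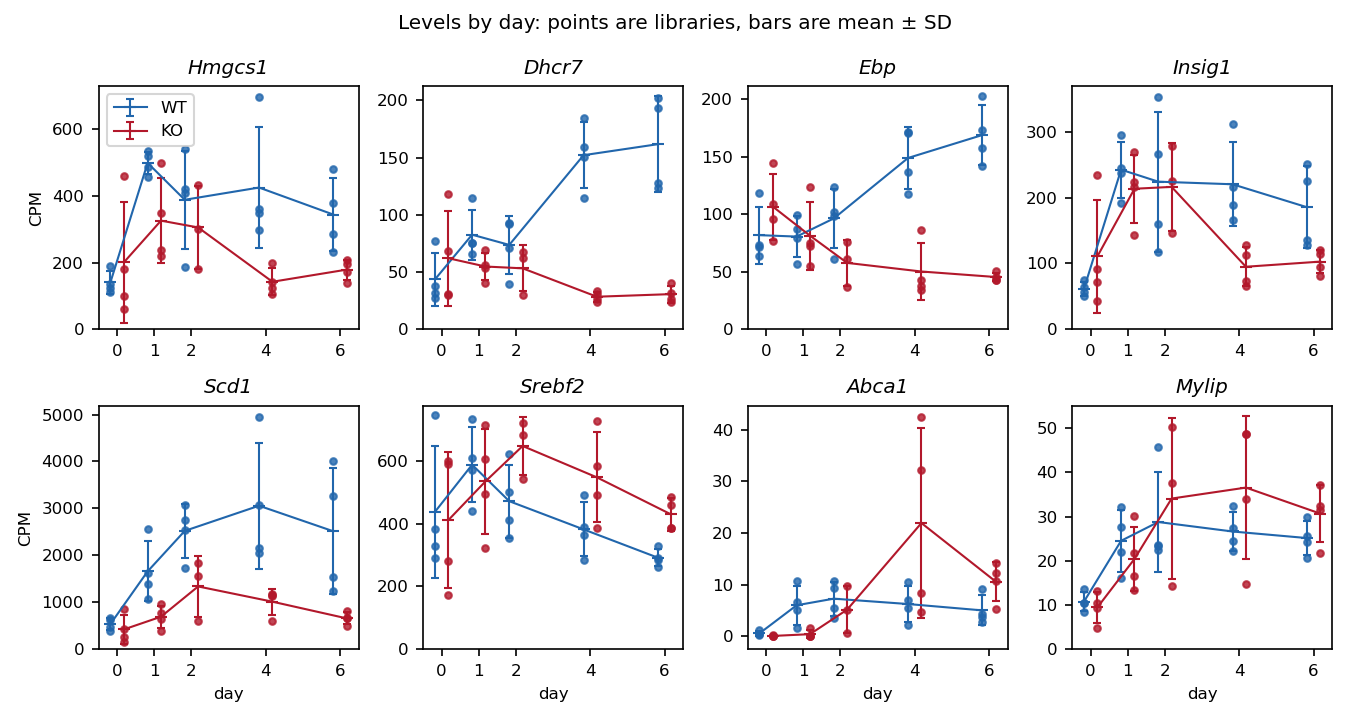
CPM (vertical axis) of 8 members by day (horizontal axis), with 1 point per library and the mean ± SD of each line. WT and KO Dhcr7 and Ebp move apart at days 4 and 6, where the KO means of Dhcr7 are 28.4 and 30.7 CPM and the WT means 152 and 162 CPM, while Srebf2 and Mylip overlap at day 4.

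Within the SREBP machinery Insig1 was lower in KO at days 4 and 6, while Srebf1, Srebf2 and Scap were called on no day in the fit of all libraries. Srebf2, which encodes the main regulator of sterol genes, stood at 390.2, 492, 363 and 283 CPM in WT replicates 1, 3, 4 and 5 and 493, 727, 586 and 387 CPM in KO at day 4 (0.44 ± 0.27, adjusted p = 0.326). At day 6 every KO library, at 487, 387, 459.7 and 385 CPM, was above every WT library, at 263, 329.5, 283 and 292 CPM, yet the difference of 0.48 ± 0.10 was not called (adjusted p = 0.265). It passed when only the day 6 libraries were fitted (0.45, adjusted p = 0.0244). With the replicate block Srebf2 passed at day 4 (0.42, adjusted p = 0.0211). Its escort Scap stood at 47.8, 56.4, 50.8 and 32.5 CPM in WT and 60.5, 76.0, 84.0 and 59.4 CPM in KO at day 4, with no overlap and a difference of 0.49 ± 0.22 (adjusted p = 0.113, and 0.0102 with the replicate block). Without TMM scaling it passed too (adjusted p = 0.0463). In WT, Scap fell from day 0 to days 4 and 6 by 0.97 and 1.00 on the log2 scale. In KO it was not called on any day.

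Srebf1, the factor tied more to fatty acid genes, stood at 125, 194, 152 and 134 CPM in WT and 72.9, 148, 160.1 and 128 CPM in KO at day 4, with overlapping groups (-0.33 ± 0.31, adjusted p = 0.452). At day 6 its KO libraries, at 86.0, 69.9, 88.7 and 77.8 CPM, lay below the WT libraries, at 94.2, 142, 107 and 144 CPM, and the difference of -0.68 ± 0.18 was not called (adjusted p = 0.0859), though like Srebf2 it passed when no other day was fitted (-0.70, adjusted p = 0.00564). Srebf1 overlaps Rai1 on the opposite strand. Insig1 stood at 166, 216, 189 and 311 CPM in WT and 112, 66.0, 128 and 74.0 CPM in KO at day 4, with no overlap (-1.31 ± 0.29, adjusted p = 0.00514), and at 129, 226, 136 and 252 against 115, 81.2, 120.3 and 95.0 CPM at day 6 (-0.94 ± 0.29, adjusted p = 0.0433).

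Among the transport and fatty acid targets, the stearoyl-CoA desaturases Scd1 and Scd2, which make monounsaturated fatty acids, were the most abundant members and were lower in KO. Scd1 stood at 2147, 3081, 2051 and 4943 CPM in WT replicates 1, 3, 4 and 5 and 599, 1174, 1122 and 1145 CPM in KO at day 4 (-1.68 ± 0.39, adjusted p = 0.00276), and at 1542, 3259, 1231 and 4012 against 671, 804, 658 and 486 CPM at day 6 (-2.03 ± 0.46, adjusted p = 0.000416). Its KO libraries already lay below all WT libraries at day 1, at 640.3, 394, 759.6 and 965 against 1386, 1066, 1621 and 2552 CPM (-1.27 ± 0.36, adjusted p = 0.0304), a call lost without any 1 of WT replicate 5 and KO replicates 1, 3 and 4. Scd2 stood at 3607, 5715, 3985 and 5955 CPM in WT and 964, 3183, 2629.8 and 2338 CPM in KO at day 4 (-1.16 ± 0.44, adjusted p = 0.0229) and at 2941, 5234, 2519 and 4554 against 1005, 1918, 1409.7 and 1155 CPM at day 6 (-1.55 ± 0.34, adjusted p = 0.00257). The groups did not overlap on either day, though the day 4 difference did not pass when WT replicate 3, WT replicate 5 or KO replicate 1 was left out. Scd1 and Scd2 are paralogs, and how reads shared between them were counted is not given in the sources used here.

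Stard4, a soluble carrier of cholesterol between membranes, was lower in KO at days 1, 4 and 6. It stood at 117, 161, 128 and 118 CPM in WT and 41.7, 63.6, 81.6 and 73.6 CPM in KO at day 1 (-0.99 ± 0.23, adjusted p = 0.0154), where the call was lost without KO replicate 1. At day 4 it stood at 52.6, 41.8, 43.4 and 86.7 against 27.6, 22.1, 26.0 and 20.6 CPM (-1.31 ± 0.25, adjusted p = 0.000956), with no overlap. The difference was -0.84 ± 0.25 at day 6 (adjusted p = 0.0311). The other 3 genes of this role were not called at day 4. Fads1, a desaturase of polyunsaturated fatty acids, was 0.45 ± 0.23 at day 4 (adjusted p = 0.197, and 0.0218 with the replicate block) and higher at day 6 (0.67 ± 0.19, adjusted p = 0.0458), a call that DESeq2 did not make (adjusted p = 0.0602) and that was lost with DESeq2 size factors, with halved counts, without the filter on low counts, and without any 1 of WT replicates 1 and 4 and KO replicates 1, 4 and 5. Its neighbour in the pathway, Fads2, was -0.31 ± 0.36 and -0.11 ± 0.44 on those days and Acly, which supplies cytosolic acetyl-CoA, was -0.28 ± 0.13 and 0.10 ± 0.22, none of them called (adjusted p = 0.499 to 0.862).

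The 3 LXR targets gave 3 patterns: Abca1 was lower in KO at day 1 and not called afterwards, Abcg1 was lower on every day, and Mylip was called on none. Abca1 (ENSMUSG00000015243, chr4:53030787-53159895, minus strand, GRCm38), which loads cholesterol onto apolipoproteins, stood at 1.23, 0.351, 0.175 and 0.484 CPM in WT replicates 1, 3, 4 and 5 and 0, 0, 0.169 and 0.082 CPM in KO at day 0 (-3.06 ± 0.55, adjusted p = 0.0728, 0.0219 by DESeq2 and 0.169 without KO replicate 1). No library overlapped, but the KO group held 6 counts in all. At day 1 the values were 6.71, 1.58, 5.02 and 10.7 CPM in WT and 0.0986, 0, 0 and 1.52 CPM in KO, where it was lower in KO (-3.76 ± 1.08, adjusted p = 0.00252, and 0.0571 when only the day 1 libraries were fitted). By day 2 the groups overlapped, at 5.54, 3.62, 10.7 and 9.31 CPM in WT and 0.61, 5.18 and 9.67 CPM in KO replicates 1, 3 and 5. At days 4 and 6 the KO means were the higher ones. At day 4 KO stood at 4.68, 8.30, 32.2 and 42.5 CPM, with replicates 4 and 5 several times the others, and WT at 5.38, 2.09, 6.94 and 10.6 CPM (1.73 ± 0.89, adjusted p = 0.0879, and 0.0302 with the replicate block, where the difference was 1.47). It also passed without KO replicate 1 (adjusted p = 0.0455). At day 6 KO stood at 5.26, 12.3, 14.2 and 10.6 CPM and WT at 2.73, 4.26, 3.80 and 9.24 CPM (1.01 ± 0.50, adjusted p = 0.355).

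Within each line Abca1 rose from day 0. In WT it was 3.39 ± 0.73, 3.68 ± 0.56, 3.50 ± 0.65 and 3.18 ± 0.59 above day 0 at days 1, 2, 4 and 6 (adjusted p = 0.0174, 0.00157, 0.00113 and 0.00241). In KO it was not called at day 1 (adjusted p = 0.176) and was 6.18 ± 1.18, 8.29 ± 0.83 and 7.24 ± 0.47 above day 0 at days 2, 4 and 6 (adjusted p = 0.000124, 6.15e-07 and 3.32e-06), from those 6 counts. Leaving out KO day 0 replicate 1 gave 5.73, 7.84 and 6.79. Fitted changes from a group so near 0 depend on the prior count, and the CPM values above show their scale. Each SE comes from log2 CPM with a prior count of 2, not from the fit. For Abca1 in KO near 0, it does not measure the error of the fitted change.

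Abcg1 (ENSMUSG00000024030, chr17:31057675-31117988, plus strand), which passes cholesterol to lipoprotein particles, was low in WT and almost absent from the KO counts. WT libraries stood at 0.149, 0.14, 1.05 and 0.138 CPM in replicates 1, 3, 4 and 5 at day 0, 0.766, 0.844, 1.19 and 0.549 CPM at day 1 and 1.28, 0.226, 0.37 and 0.887 CPM at day 2. Later they stood at 0.702, 1.22, 1.04 and 0.223 CPM at day 4 and 0.497, 0.381, 1.01 and 0 CPM at day 6. At days 0, 1, 2 and 6 no KO library had a count. At day 6 WT replicate 5 had none either, so the lines overlapped there. Against a floor of 3 counts over the KO group, Abcg1 was at least 11.9-fold lower at day 0, 20.5-fold at day 1, 14.0-fold at day 2 and 6.45-fold at day 6. If the mates of read pairs were counted separately, which the 64.4% of even values among counts above 0 leaves possible, these bounds become 5.94, 10.3, 7.01 and 3.23. WT replicate 4 carried much of the signal on 2 of these days. Leaving it out lowered the bound to 4.58 at day 0 and to 3.99 at day 6, or to 2.29 and 2.00 with mates counted separately. At day 4 the KO libraries held 2 counts in all against 50 in WT, or 4.31% of the WT rate (95% exact interval 0.508% to 16.4%, counting error only). It was called lower on all 5 days (adjusted p = 0.00153 to 0.0106). With so few KO counts it passed the filter on low counts through the WT libraries alone, so a call could only be lower. The counts of members lower in KO on each day include it. Setting Abcg1 at its bound left the members' median the same on each day. In the fits of days 0, 2, 4 and 6 alone it fell below the filter on low counts and was not tested.

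Mylip, the ubiquitin ligase, rose in both lines, and no difference between them was called. At day 0 it stood at 13.7, 10.5, 10.4 and 8.30 CPM in WT and 4.68, 9.21, 10.5 and 13.2 CPM in KO, and at day 4 at 24.4, 22.3, 27.4 and 32.4 and 14.7, 34.0, 48.7 and 48.7 CPM. KO replicate 1 was the lowest KO library at each of these days. The rise from day 0 to day 4 was 1.33 ± 0.17 in WT and 1.94 ± 0.53 in KO (adjusted p = 0.00182 and 4.09e-05), and the latter was 1.71 without KO day 0 replicate 1 (adjusted p = 0.000364). KO against WT was 0.38 ± 0.43 at day 4 and 0.22 ± 0.20 at day 6 (adjusted p = 0.446 and 0.676).

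Whether the genotype difference itself changed from day 0 was tested with an interaction term for each later day. These terms and all changes from day 0 share the day 0 libraries, including KO replicate 1. At day 1 no member and no gene of the table was called (0% of all genes), with 4 members at an unadjusted p under 0.05, and at day 2 no member was called (0.544% of all genes), with 6. At day 4 the term was lower for 15 members and higher for 1, Abca1 (3.13% and 4.54% of all genes), and at day 6 lower for 9 and higher for none (4.04% and 5.91%). Tested over the 4 days together, 7 members changed: Pmvk, Cyp51, Nsdhl, Ebp, Dhcr7, Insig1 and Abca1 (7.74% of all genes). When KO day 0 replicate 1 was left out, the terms were lower for 7 at day 4 and for 2 at day 6, and 3 members changed over the days together. Those 3 were Dhcr7, Ebp and Abca1. The count over the days together was also 3 without WT day 0 replicate 3 or 5, 4 without WT day 4 replicate 3 or 5 or KO day 4 replicate 4 or 5, 11 without WT day 0 replicate 4 or KO day 1 replicate 3, 12 without KO day 0 replicate 5 and 13 without KO day 0 replicate 3. DESeq2 called 15. For Dhcr7 the term was -2.93 at day 4 (adjusted p = 0.0003) and -2.44 without that library (adjusted p = 0.00119). For Ebp it was -1.97 and -1.80 (adjusted p = 0.00264 and 0.00705). For Abca1 it was 4.79 (adjusted p = 0.0274), and 4.34 without that library (adjusted p = 0.063).

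**Figure D4:**
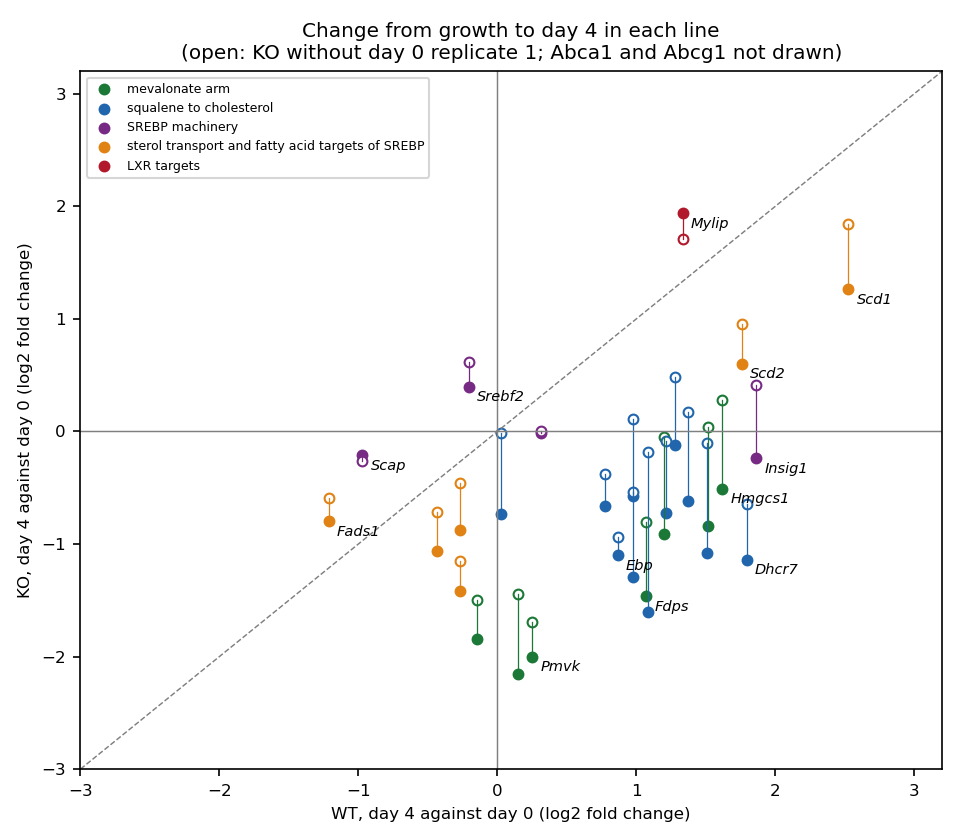
Log2 change from day 0 to day 4 in WT (horizontal axis) and in KO (vertical axis), with 1 filled point per member and an open point for the value without KO day 0 replicate 1; the dashed line marks equal change, and Abca1 and Abcg1 are left out. Dhcr7 lies at 1.79 in WT and -1.14 in KO, or -0.64 without that library, while Mylip lies at 1.33 and 1.94.

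The course of the KO line after day 0 depended on that library. With all 4 day 0 libraries, 1 member was higher and none lower at day 1 (4.18% and 3.81% of all genes), 3 higher and 1 lower at day 2 (12.7% and 13.9%), 3 higher and 15 lower at day 4 (17.9% and 19.6%), and 2 higher and 13 lower at day 6 (20.5% and 23.1%). Without KO day 0 replicate 1 the counts became 9 and 0 at day 1, 13 and 0 at day 2, 3 and 5 at day 4, and 3 and 6 at day 6. The shares of all genes called in that refit are not given here. Whether the members' counts moved more than those of all genes therefore cannot be told. Hmgcs1 is an example. Its KO day 0 libraries stood at 461, 61.2, 181 and 98.9 CPM in replicates 1, 3, 4 and 5 and its day 1 libraries at 238, 219, 347 and 498 CPM. The change was 0.70 ± 0.66 with all libraries (adjusted p = 0.272) and 1.49 without replicate 1 (adjusted p = 0.00617). Insig1 was likewise 0.97 (adjusted p = 0.0827) and 1.63 (adjusted p = 0.00161). Falls that were called both ways at day 4 were those of Acat2 (-2.16 and -1.44), Mvk (-1.85 and -1.50), Pmvk (-2.0 and -1.69) and Ebp (-1.10 and -0.93) among the enzymes. DESeq2 with all libraries called 2, 6, 18 and 16 members at the 4 days. The day 1 count was 0 without KO day 0 replicate 3 or 4 or without KO day 1 replicate 4 or 5, and the day 2 count was 2 without KO day 2 replicate 5. The comparisons of KO with WT at days 1 to 6 use the day 0 libraries only in the shared estimate of the spread.

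Within groups, the sterol enzymes also moved together from library to library. After the group mean was removed from log2 CPM, the median correlation among the 18 enzymes over the 39 libraries was 0.71, and 150 of their 153 pairs were positive. Insig1 correlated with the enzymes at a median of 0.71, Acly at 0.70, Fads2 at 0.68, Srebf2 at 0.44 and Srebf1 at 0.42. Scap stood at 0.16, with 14 of 18 pairs positive and a lowest value of -0.53. Abca1, Mylip and Abcg1 stood at -0.08, -0.14 and 0.07. The 2 better expressed LXR targets, Abca1 and Mylip, correlated with each other at 0.68. The libraries of a group share a day, a line and a depth range, and these values are descriptions without a test. No such value is given for other genes, so whether the correlation is particular to the sterol enzymes cannot be told. Without KO day 0 replicate 1 the median among the enzymes was 0.66, without all day 0 libraries 0.60, in WT alone 0.73 and in KO alone 0.74. The weaker relations rested more on single libraries. Mylip with the enzymes went from -0.14, with 4 of 18 pairs positive, to 0.03, with 10 positive, when KO day 0 replicate 1 was left out, and to 0.08 without the day 0 libraries. Srebf2 with the enzymes fell to 0.14 without the day 0 libraries. Abca1 with Mylip was 0.38 in WT alone and 0.79 in KO alone.

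**Figure D5:**
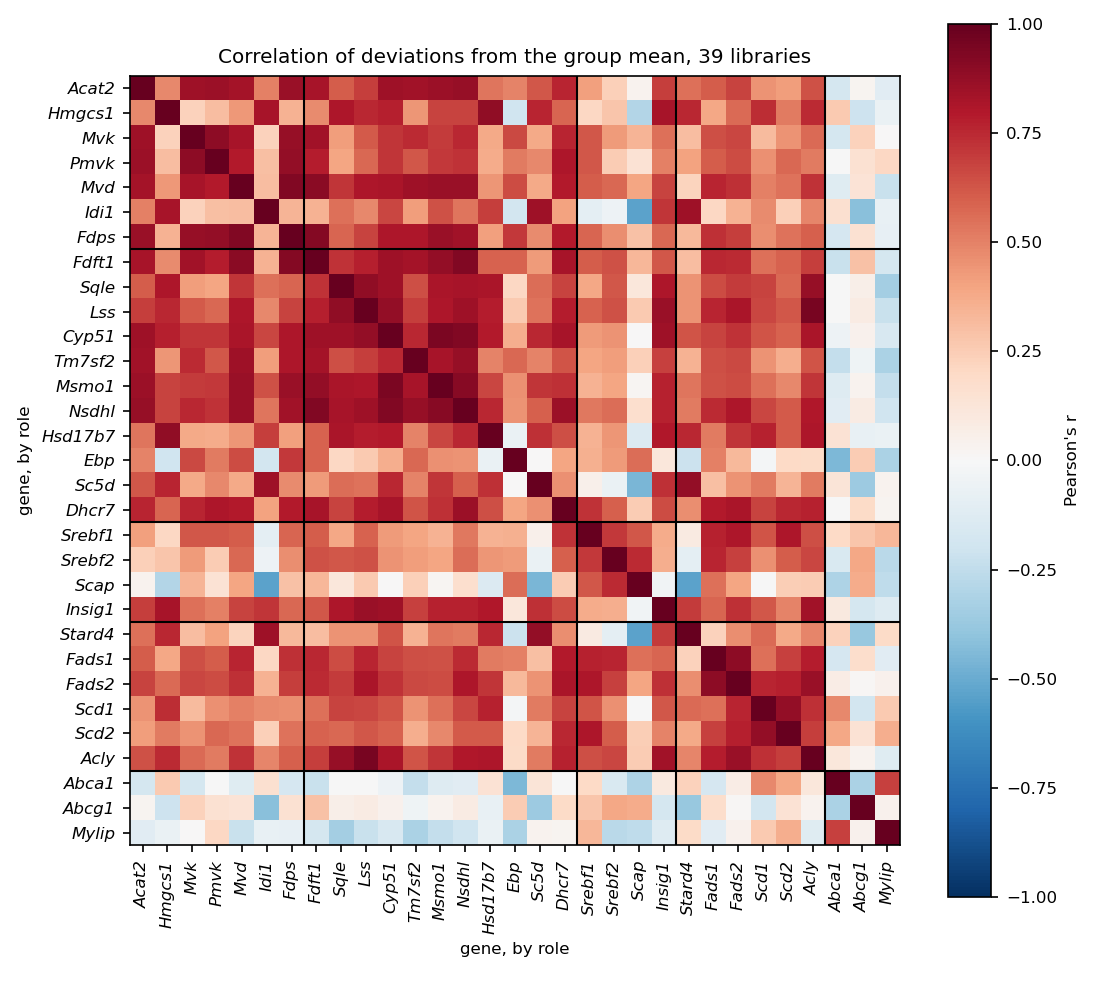
Pearson's r between members (rows and columns, by role) of the deviations of log2 CPM from the group mean over 39 libraries, with black lines between roles. The sterol enzymes form a red block with a median of 0.71, and the last 3 rows, the LXR targets, are pale against it.

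Per length, the members spanned a wide range of levels. Averaged over the 10 groups, Scd2 was highest at 509.7 RPKM (CPM per kilobase of exon model), followed by Scd1 at 294 and then Srebf2, Acly and Hmgcs1 at 66.1, 65.4 and 64.2 RPKM, whose ranges over the groups overlapped. Among the enzymes, Idi1 and Tm7sf2 were lowest at 6.22 and 5.46 RPKM. Abca1 and Abcg1 were below all others, at 0.610 and 0.0441 RPKM, and Mylip was at 7.64 RPKM.

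Of 59 further genes of the pathway, 55 were tested, and their calls were divided between directions. At day 4, 9 were higher and 7 lower in KO (13.3% and 14.2% of all genes tested), with a median of 0.03. At day 6, 8 were higher and 6 lower (14.5% and 14.4%). The counts of the smaller lists named next stand beside the same percentages. This list was chosen with earlier results of these data known, as were the members. Among the 10 genes of SREBP processing and sterol-driven degradation, Mbtps1, the protease that makes the first cut in SREBP, was 0.86 ± 0.15 (adjusted p = 0.000138) at day 4, and Ube2g2, a ubiquitin-conjugating enzyme of the endoplasmic reticulum, was -1.06 ± 0.15 (adjusted p = 0.000221). In all, 3 of the 10 were higher and 2 lower. Of 12 other fatty acid genes 1 was higher, Acacb at 2.32 ± 0.68 (adjusted p = 0.0162), from 0.289 CPM in WT to 1.54 CPM in KO, and 1 was lower. The elongase Elovl6 was higher at day 6 (1.30 ± 0.39, adjusted p = 0.0162). No gene of the 8 tested in the isoprenoid branches was called at day 4 or 6: Pdss1 was lower at day 2 (-1.16 ± 0.27, adjusted p = 0.0338) and Dhdds higher at day 0 (0.53 ± 0.23, adjusted p = 0.0379).

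On the side of LXR, the receptor gene Nr1h3 averaged 1.83 ± 0.595 CPM (SD, n = 4) in WT and 0.293 ± 0.165 CPM (SD, n = 4) in KO at day 0, where it was lower (-2.65 ± 0.43, adjusted p = 0.00918), and it was called on no later day. Its partner Rxra was 0.54 ± 0.09 and 0.61 ± 0.16 at days 4 and 6, not called (adjusted p = 0.088 and 0.0503). Of 6 other LXR targets 2 were higher and 1 lower at day 4. Arl4c, a small GTPase, averaged 10.3 ± 1.23 CPM (SD, n = 4) in WT and 46.4 ± 5.83 CPM (SD, n = 4) in KO (2.10 ± 0.14, adjusted p = 3.22e-08), and Rgcc, a cell cycle regulator, went the other way (-3.29 ± 0.27, adjusted p = 0.000283). Among 12 transport and storage genes 2 were higher and 3 lower. Soat1, which esterifies cholesterol for storage, was 1.49 ± 0.19 (adjusted p = 3.73e-05), from 49.9 ± 12.2 CPM (SD, n = 4) in WT to 148 ± 16.9 CPM (SD, n = 4) in KO. Gramd1b, which moves cholesterol from the plasma membrane to the endoplasmic reticulum, was 2.24 ± 0.14 (adjusted p = 7.24e-07), from 31.3 ± 3.21 CPM (SD, n = 4) in WT to 156 ± 18.6 CPM (SD, n = 4) in KO. Of the 2 oxysterol enzymes tested, Ch25h, the cholesterol 25-hydroxylase, was higher in KO at day 4 (adjusted p = 0.00113), at 2.56 ± 1.72 CPM (SD, n = 4) against 0.0694 ± 0.0851 CPM (SD, n = 4) in WT, and Cyp46a1 was not called (-0.99 ± 0.48, adjusted p = 0.186).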

How the data were processed

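The deposited table held raw read counts per Ensembl gene, made by the authors from stranded mRNA libraries. FastQC 0.11.9, STAR 2.7.9, featureCounts 2.0.3, DESeq2 and the builds GRCm38 and GRCh38 are named without a role in the submitters' processing notes; the strand setting and annotation are not given in the sources used here. Of the counts above 0, 64.4% were even, and read mates may have been counted separately. The table has 1 column of counts that matches no sample in the labels, and it was not used here. All 29980 gene IDs matched GENCODE mouse release 21 (GRCm38), which gave symbols, positions and exon lengths. Promoter windows came from RefSeq.

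The 39 libraries, of 6838281 to 28902526 counts, were fitted together with 1 mean per group by edgeR 4.0.16 (R 4.3.3, limma 3.58.1): TMM scaling (factors 0.9035 to 1.054), filterByExpr, robust quasi-likelihood test, Benjamini-Hochberg adjustment over the 13780 genes tested in each comparison, called under 0.05. CPM values given for the members use plain library totals, without the TMM factor. The log2 CPM values use TMM-scaled totals. Each SE combines the variances of log2 CPM (prior count 2) of the groups compared. The script was tested on simulated counts. Alternatives were DESeq2 1.42.0, its size factors, no TMM factor, no filter, halved counts, the groups of a comparison alone, replicate blocks and leaving out each library.

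Replicate numbers were taken to pair the lines where every same-numbered pair deviated together with a correlation over 0.1, which held at days 0, 1, 2 and 4 (lowest 0.126) and not at day 6 (lowest -0.0172). It also held between day 0 and day 1 in WT and between day 0 and days 1 and 2 in KO. The main fit did not use this pairing, and its calls are those of unpaired groups. The correlations were not set against those of differently numbered libraries.

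Values in every library are given for the 3 members of each role with the smallest adjusted p in any comparison of the lines, for Srebf1, Srebf2 and Insig1 and for the LXR targets, and of each further list up to 2 genes are named by the same rule. Members and lists were chosen with earlier results of these data known.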

Additional observations from a re-analysis of the deposited data

Results flagged for a closer look

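Of 144 sets of 4 libraries (1 gene in 1 group), 12 had a highest or lowest library far from the other 3, where chance alone marks about 1 in 20. WT day 0 replicate 4 was the highest library for 4 genes, with 52.0 CPM for Pmvk (the others 20.6 to 25.9), 119 CPM for Ebp (63.9 to 73.2), 222 CPM for Srebf1 (80.9 to 96.2) and 1.05 CPM for Abcg1 (0.138 to 0.149). At WT day 4, replicate 5 held 695 CPM of Hmgcs1 against 296 to 359.6 CPM. Mylip reached 45.7 CPM in WT day 2 replicate 5, with 22.4 to 23.7 CPM in the rest of that group.

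In KO, Sc5d was lowest in day 1 replicate 1, at 32.0 CPM against 52.3 to 54.3, and Scd1 in day 4 replicate 1, at 599 CPM against 1122 to 1174. Ebp was highest in day 4 replicate 3, at 86.7 CPM against 34.1 to 42.7, and Scap in day 0 replicate 4, at 105 CPM against 68.9 to 74.1. Abca1 reached 1.52 CPM in day 1 replicate 5, with at most 0.0986 CPM in the others. Abcg1 had counts in a single KO library, day 4 replicate 3, at 0.202 CPM.

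The difference between the lines changed between day 0 and day 4 for 16 members, by the interaction term of edgeR's quasi-likelihood test. Of all genes tested, 3.13% were called lower and 4.54% higher by this term. On the log2 scale the change at day 4 was -2.30 for Acat2, -2.13 for Hmgcs1, -2.25 for Pmvk, -2.12 for Mvd, -2.35 for Idi1 and -2.53 for Fdps in the mevalonate arm. In the squalene arm it was -2.27 for Lss, -1.93 for Cyp51, -2.69 for Tm7sf2, -1.99 for Msmo1, -2.59 for Nsdhl, -1.97 for Ebp, -1.44 for Sc5d and -2.93 for Dhcr7. It was -2.10 for Insig1 and 4.79 for Abca1. Without KO day 0 replicate 1 the call held for Pmvk, Cyp51, Nsdhl, Ebp, Sc5d, Dhcr7 and Insig1.

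At day 6 the change was called for 9 members, beside 4.04% of all genes lower and 5.91% higher. It was -2.04 for Pmvk, -2.24 for Fdps, -1.85 for Lss, -2.65 for Tm7sf2, -1.55 for Msmo1, -2.02 for Nsdhl, -2.29 for Ebp, -2.90 for Dhcr7 and -1.73 for Insig1. Without KO day 0 replicate 1 it held for Ebp (-2.12) and Dhcr7 (-2.40).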

How the results depend on the processing

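No called difference of a member changed sign under an alternative. Sqle at day 0, not called at 0.07, was called lower at -0.65 without KO day 0 replicate 1 (adjusted p = 0.0490) and ranged from -0.65 to 0.32 with each library left out in turn. Some other differences that were not called changed sign. For KO against WT at day 0, 1 member was called, and 2 were called without TMM factors, 3 with the replicate block over all groups, 3 by DESeq2, 0 with only the day's libraries fitted and 0 with the replicate block within the day. With the replicate block within the day the count went from 1 to 6 at day 2. At day 6, where the numbers do not pair the lines, it went from 13 to 23 with the block within the day and to 22 with only the day's libraries fitted. The block within the day also raised the calls over all genes. They reached 3734 at day 2 (1053 higher and 1414 lower in the main fit), 5234 at day 4 (1830 higher and 1961 lower) and 4781 at day 6 (1997 higher and 1983 lower). The replicate block over all groups left every other count of members within 1.5 times its value, and ended none of the 38 calls between the lines. For KO day 1 against day 0 the count went from 1 to 0 with only those groups fitted and to 2 by DESeq2. For genotype by day, all days together, it went from 7 to 15 by DESeq2. The sterol element stood in 1 promoter window and, with 1 mismatch allowed, in 6.

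Leaving out each library in turn, the members called in KO against WT numbered 1 to 7 at day 0, 2 to 4 at day 1, 1 to 2 at day 2, 14 to 19 at day 4 and 7 to 14 at day 6. Against day 0 they numbered 3 to 14, 11 to 17, 15 to 21 and 14 to 17 in WT, and 0 to 9, 2 to 13, 8 to 19 and 9 to 18 in KO, at days 1, 2, 4 and 6. For genotype by day they numbered 3 to 13. The alternatives without KO day 0 replicate 1, with 1 line alone or without day 0 in the correlations, and the Abcg1 bounds with a WT library left out, were chosen after seeing the data. Depth limits Abcg1 and, at day 0 in KO, Abca1, with few counts or none. Library totals were lowest at day 6 in both lines.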

Other observations

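Among the genes of sterol storage and LXR signalling outside the 31, those called at day 4 and named in the report were called in the same direction at day 6. Soat1, the esterifying enzyme, was 1.66 ± 0.25 in KO against WT (± SE of the log2 difference, adjusted p = 7.93e-06, edgeR quasi-likelihood test). Gramd1b, a sterol carrier at membrane contacts, was 1.89 ± 0.27 at day 6 (adjusted p = 8.51e-06), and Arl4c, an LXR target, was 1.97 ± 0.29 (adjusted p = 1.05e-07). Rgcc, also listed as an LXR target, was lower at -3.40 ± 0.86 (adjusted p = 0.000364). The protease gene Mbtps1 was 0.92 ± 0.07 and the ubiquitin-conjugating enzyme gene Ube2g2 -1.16 ± 0.15 (adjusted p = 5.44e-05 and 6.76e-05). These genes were named by a rule that used the same comparisons.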
